A study of Rattus norvegicus with 20 samples.

Results

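The heart pool was 1 small RNA sequencing library, made from heart miRNA combined from 3 rats, and it was chosen here by its tissue label alone, as 1 of 20 libraries in the series. The rats were untreated, non-drinking male Long Evans rats at postnatal day 35, and every tissue library compared here came from animals of that kind. Heart was set against 13 other tissue pools of 3 rats each (skeletal muscle, fat, kidney, large intestine, small intestine, liver, lung, pancreas, skin, spleen, stomach, testes and thymus) and against brain, taken as the mean of 3 hemispheres that were sequenced singly. The 3 serum libraries were left out. Levels are RPM, that is, reads scaled to a common library total, where the total is the reads that a library held on miRBase precursors, the hairpin transcripts from which mature miRNAs are cut.

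Heart held 576001 precursor reads, against 162080 to 3685761 in the other pools, so that 3 reads, taken as the floor of detection, equal 5.21 RPM in heart. Heart has no replicate, and no test between tissues was possible. Intervals given below are 95% intervals that cover counting error only. The 3 brain hemispheres give the one available view of the spread between libraries: over the 172 precursors at 100 RPM or more in brain, the highest hemisphere was a median of 1.27 times the lowest, and it was over 2 times the lowest for 3 of them. The library labelled pancreas held the hepatocyte miRNA mir-122 at 14862 RPM, a level like that of liver, and leaving this pool out changed none of the counts of heart calls by more than 1.5 times. In pooled tissue, fewer cells of a type and less miRNA per cell cannot be told apart.

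miRNAs are short RNAs that hold back the translation and stability of messenger RNAs, which they recognise mainly through the seed, bases 2 to 8 from the 5′ end. Striated muscle carries its own set, often called myomiRs. Several of them lie inside myosin heavy chain genes and are made with the host transcript. In the RefSeq annotation of the rat GRCr8 assembly, mir-208a lies within Myh6 (alpha myosin heavy chain, the fast cardiac form), mir-208b within Myh7 (beta myosin heavy chain, the slow form of heart and slow skeletal fibres) and mir-499 within Myh7b, each on the strand of its host. mir-1 and mir-133a share a locus, as do mir-206 and mir-133b. mir-206 is known as a miRNA of skeletal muscle.

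The mature sequences of this set are shown first, because the heart and skeletal muscle libraries differ within families that share a seed. Names and sequences are from RefSeq (GRCr8), written 5′ to 3′ with the seed in capitals; 534 of the 577 mature names in the data matched it, and they carry 98.5% of the heart reads on mature miRNAs.
miR-208a-3p: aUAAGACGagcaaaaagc
miR-208b-3p: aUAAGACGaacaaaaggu
miR-499-5p: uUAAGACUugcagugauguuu
miR-133a-3p: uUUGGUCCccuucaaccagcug
miR-133b-3p: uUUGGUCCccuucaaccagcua
miR-1-3p: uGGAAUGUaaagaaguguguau
miR-1b: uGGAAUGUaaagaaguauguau
miR-206-3p: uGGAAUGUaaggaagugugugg
miR-490-3p: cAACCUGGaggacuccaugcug
Counted from 1 at the 5′ end of the first-named sequence, miR-208a-3p and miR-208b-3p differ at G10A, A16G and C18U and have the same seed. miR-499-5p has 6 of the 7 seed bases of both, with G8U as the one difference. miR-133a-3p and miR-133b-3p differ only at the last base (G22A). miR-1-3p differs from miR-1b at G17A, outside the seed, and from miR-206-3p at A11G, A21G and U22G, also outside it.

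The 2 heart myosin miRNAs set the heart library apart by the widest margin. mir-208b was at 2899 RPM in heart (1670 reads, interval 2762 to 3042), while the other 14 tissues ranged from 0 to 30.8 RPM with a median of 2.02. Its next highest tissues were testes at 30.8 RPM, on 5 reads, thymus at 24.3 and skeletal muscle at 15.9, so no tissue came near heart. The ratio of heart to testes was 94.0 (40.2 to 290).

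mir-208a was at 562 RPM in heart (501 to 625). It had 0 reads in 11 of the other 14 tissues, skeletal muscle among them, where 3 reads would be 2.38 RPM. The 8 reads found elsewhere were 6 in 1 brain hemisphere and 1 each in large intestine and lung. Against the 3 hemispheres summed, at 2.77 RPM on those 6 reads, heart was 203 times higher (91.9 to 555). Reads on mir-208b outnumbered those on mir-208a in heart by 5.16 times (4.59 to 5.84), a ratio of read numbers and not of molecules.

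mir-499 was at 1236 RPM in heart (1147 to 1330) and, unlike the mir-208 pair, had reads in every other tissue. The others ran from 2.13 RPM in small intestine to 118 in kidney, with thymus at 80.5, pancreas at 54.5 and skeletal muscle at 26.2. Heart was 10.5 times (8.23 to 13.6) above kidney. Of the reads on its 2 arms in heart, 99.3% (Wilson interval 98.2 to 99.7) were the 5p arm, as were at least 98.2% in each of the 6 other tissues with 20 or more arm reads.

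mir-490, which lies in the muscarinic receptor gene Chrm2, was at 590 RPM in heart (529 to 656) with 0 reads in skeletal muscle. Its next tissues were organs with a smooth muscle wall or neurons, namely stomach at 162 RPM, brain at 121, large intestine at 44.2 and small intestine at 40.6. Fat, pancreas, spleen, testes and thymus had 0 reads. Heart was 3.63 times (2.96 to 4.49) above stomach. Only 14 of its 340 heart reads (4.12%) were counted under its listed mature arms, against 9.20 to 14.3% in the 4 other tissues with enough reads. In mature reads miR-490-3p was at 24.99 RPM in heart (11 reads, 12.5 to 44.7). Brain was next at 19.5, a level inside the heart interval. miR-490-5p was at 6.82 RPM in heart, on 3 reads, and at 4.30 in stomach. The wide lead of heart for mir-490 thus rests on precursor reads, and the low arm share was not explored further.

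The myomiRs that heart shares with skeletal muscle showed the opposite order. mir-133a was at 27262 RPM in heart (26837 to 27692) and at 68920 in skeletal muscle, followed at a distance by skin at 2100, large intestine at 224 and stomach at 223. It had 0 reads in pancreas and spleen. Heart was at 0.40 of the skeletal muscle level (0.39 to 0.40), a 2.53-fold difference that came to 1.98-fold with TMM scaling, a scaling that evens out the bulk of the miRNAs between libraries. mir-133b was at 238 RPM in heart against 1115 in skeletal muscle.

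mir-1, known as one of the main miRNAs of cardiac muscle, was listed with only 13 reads in heart, or 22.6 RPM (12.0 to 38.6), and at 418 RPM in skeletal muscle. mir-1b stood at 48.6 RPM in heart and 326 in skeletal muscle. In the other 13 tissues mir-1 did not pass 5.31 RPM and mir-1b did not pass 9.30, so heart and skeletal muscle were the 2 highest tissues for both. The mature list gave miR-1-3p 9 reads in heart, or 20.4 RPM of mature reads, and 565 RPM in skeletal muscle. Why these listed levels are so low was not tested. mir-206 had 0 reads in heart and 176 RPM in skeletal muscle, which was at least 33.8-fold higher against the heart floor.

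**Figure D1:**
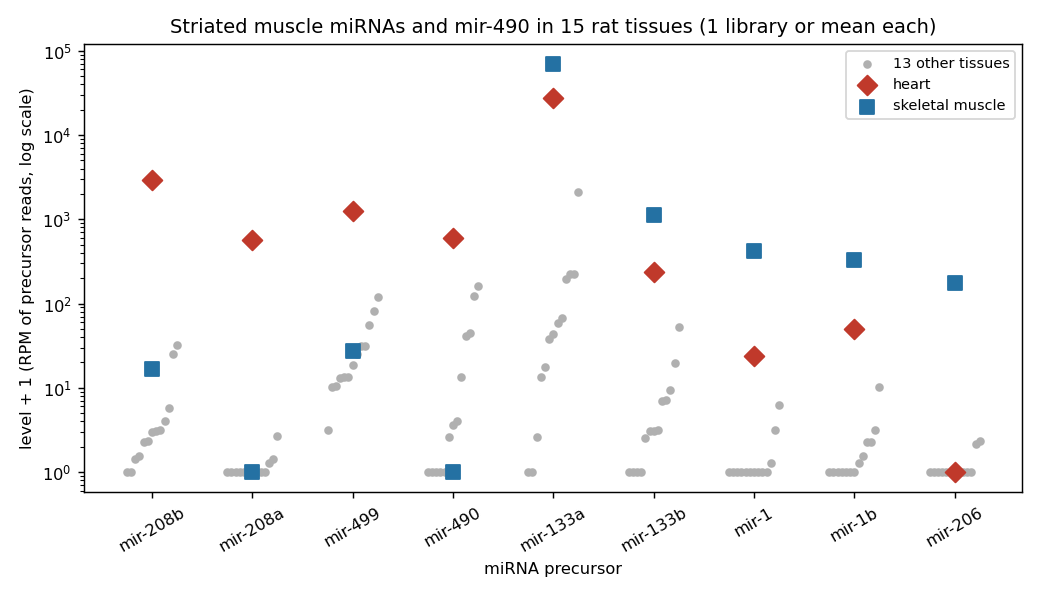
Levels of 9 precursors in 15 tissues, as RPM of precursor reads plus 1 on a log axis, with heart as diamonds, skeletal muscle as squares and the other 13 tissues as grey points (brain is the mean of 3 hemispheres). mir-208b, mir-208a, mir-499 and mir-490 stood above every other tissue in heart, whereas mir-133a, mir-133b, mir-1, mir-1b and mir-206 were highest in skeletal muscle.

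The markers taken for heart, mir-208a, mir-499 and mir-133a, therefore went with the label. On the log2 scale with 1 RPM added they were 9.14, 5.83 and 9.06 above the median of the other 14 tissues. Since they were picked as heart markers, these values describe the library and support nothing further. Of the 7 miRNAs of the striated muscle list, which holds these markers, 6 were at least 1 above that median, the exception being mir-206 at 0. Of all precursors compared, 23.9% were as far above it. Against skeletal muscle alone, 3 of the 7 were at least 2-fold higher in heart and 4 at least 2-fold lower.

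Across all precursors the heart library was near the middle of the tissues. Of the 444 listed, the 276 that averaged 10 RPM or more across the 15 tissues were compared. Heart was at least 1 above the median of the others on the log2 scale for 66 (23.9%) and at least 1 below it for 60 (21.7%), and the median difference was 0.015. With TMM scaling the differences shifted by a median of −0.14, and over the same precursors 59 were above and 73 below. The precursors nearest the upper line were mir-30d at 1.03 inside and mir-139 at 0.95 outside, and those nearest the lower line mir-431 at −1.01 and mir-409a at −0.996. Of the 276, 45 had 0 reads in heart. For some of the 60 below, the tissue median was itself under the heart floor of 5.21 RPM, as for mir-196a at 2.65 RPM. Those were not measured differences.

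**Figure D2:**
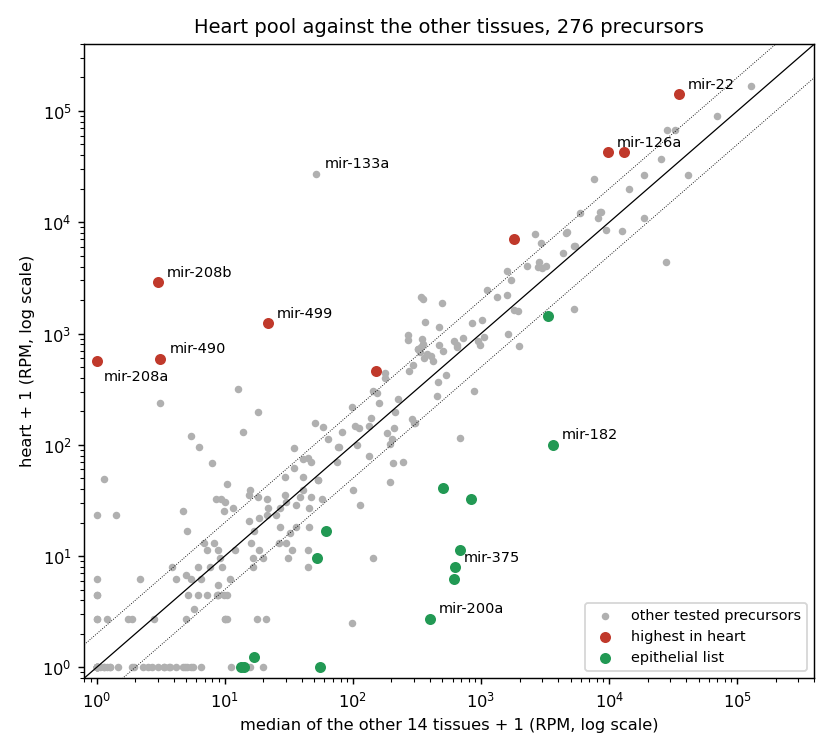
Each point is 1 of 276 precursors, with the median of the other 14 tissues on the x axis and heart on the y axis (RPM plus 1, log scales); the solid line marks equal levels and the dotted lines 2-fold differences. Most points lay near the solid line, with mir-208b, mir-208a, mir-490, mir-499 and mir-133a far above it and the epithelial list below it.

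Of the 276 precursors, 9 (3.26%) were highest in heart of the 15 tissues with the interval of the ratio to the next tissue above 1, and 11 (3.99%) were highest by level alone. Of the 9, mir-208a and mir-208b passed the 10 RPM minimum through heart alone, their means over the other tissues being 0.17 and 6.32 RPM, so for these 2 a high heart level was a condition of being compared. With a minimum of 10 counts in 3 libraries in its place, mir-208a was not compared. By level alone brain was highest for 96, testes for 30 and skeletal muscle for 23. Beside mir-208b, mir-208a, mir-499 and mir-490, the 9 were mir-126a, mir-22, mir-30c-1, mir-30c-2 and mir-30e, whose margins over the next tissue were far narrower.

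mir-126a, a miRNA of the endothelial lining of vessels, made in a gene called Egfl7, was at 42495 RPM in heart, 32972 in lung, 26437 in pancreas and 22419 in liver, and its lowest tissue was testes at 2289. Heart exceeded lung 1.29 times (1.27 to 1.31), a margin close to the median spread between hemispheres. Both arms were highest in heart, with miR-126a-5p making up 85.4% of the arm reads, within the 78.6 to 90.5% of the other tissues. Of the other vessel miRNAs tested, mir-221 at 69.4 RPM, mir-222 at 78.1 and mir-139 at 12.2 were not past 1 in either direction, apart from mir-222 with DESeq2 size factors at −1.06.

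mir-22, which is abundant in cardiac and skeletal muscle and in liver, was at 141864 RPM in heart, 132839 in liver, 100621 in pancreas and 98996 in skeletal muscle. It was the second most abundant precursor of the heart library, with 14.2% of its reads. The margin over liver, 1.07 times, was smaller than the spread between hemispheres, and with TMM scaling or DESeq2 size factors heart came second. In mature reads heart was also second, with miR-22-3p at 184755 RPM against 203978 in liver.

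The mir-30 family, known for restraining connective tissue growth factor and autophagy genes in heart, was high in its c and e members. The shared seed and the few differing bases are shown here because the members were counted apart on them.
miR-30a-5p: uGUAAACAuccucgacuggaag
miR-30c-5p: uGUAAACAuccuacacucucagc
miR-30e-5p: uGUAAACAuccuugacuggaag
miR-30a-5p differs from miR-30e-5p only at C13U. mir-30e was at 42785 RPM in heart, against 27022 in thymus and 26389 in kidney, a ratio of 1.58 (1.55 to 1.61) to thymus. In mature reads miR-30e-3p was highest in heart at 4388 RPM, while miR-30e-5p, at 1527, was second to kidney at 1702. mir-30c-2 was at 7016 RPM, against 5357 in skeletal muscle and 4495 in kidney, and mir-30c-1 at 464, against 311 in brain and 261 in skeletal muscle. mir-30c-1 and mir-30c-2 give the same miR-30c-5p, so the split of reads between them is uncertain. In mature reads miR-30c-5p was at 632 RPM in heart (560 to 710) and at 599 in skeletal muscle, a level inside the heart interval. It had 278 mature reads in heart, against 4041 precursor reads on mir-30c-2 alone. mir-30a, at 67191 RPM, was second to kidney at 85785. The arm balance of mir-30e leaned to the 3p arm in heart, where 25.8% of arm reads (24.2 to 27.5) were 5p. Skeletal muscle was lower still at 20.1%, and the other tissues reached 66.1% in spleen. The arms held 10.6% of the mir-30e precursor reads in heart and 6.34 to 14.5% elsewhere, so this balance rests on a small part of the reads.

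mir-322, a relative of mir-16 by its seed that lies on the X chromosome beside mir-503, stood at the top with lung. Its 2 listed copies, which share their arms, were at 2028 and 2127 RPM in heart and 2025 and 2057 in lung, with ratios of 1.00 (0.94 to 1.07) and 1.03 (0.97 to 1.10). Skeletal muscle followed at 1150 and 1082.

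**Figure D3:**
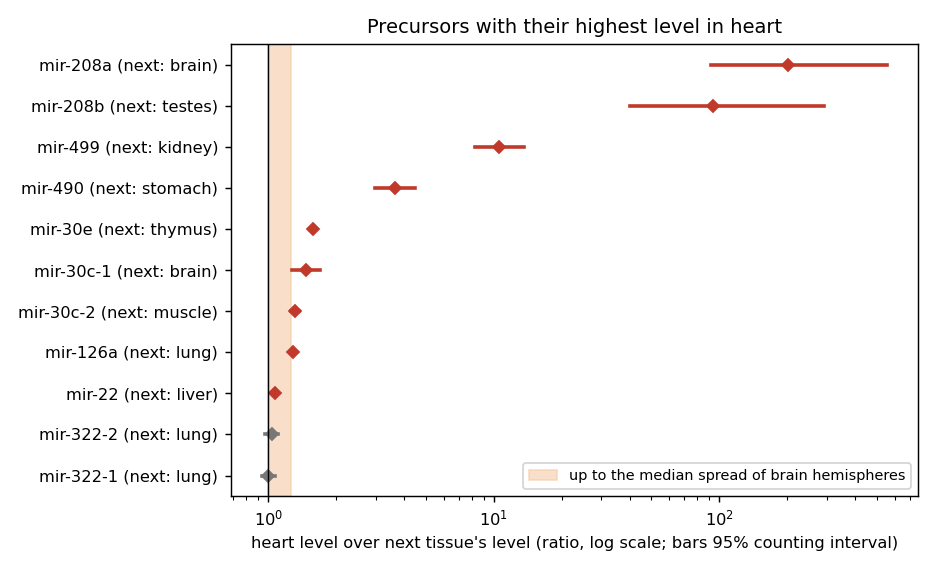
Ratio of the heart level to the next highest tissue (log axis) for the 11 precursors with their highest level in heart, with bars for the 95% counting interval; the shaded band reaches to 1.27, the median ratio of the highest to the lowest brain hemisphere. Brain, where next, is taken over the summed reads of its 3 hemispheres. mir-208a, mir-208b, mir-499 and mir-490 lay well beyond the band, mir-22 lay inside it, and the bars of mir-322-1 and mir-322-2 crossed 1 (grey).

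A few precursors made up most of the heart library. The 10 most abundant held 70.9% of the reads (70.8 to 71.0), which placed heart seventh of 15 between stomach at 84.7% and brain at 53.7%. First was mir-143, a miRNA of smooth muscle and fibroblasts, at 166882 RPM, rank 5 among the 15 tissues and 0.38 above the median of the others on the log2 scale. It was followed by mir-22, by let-7f-1 at 89901 RPM, by mir-27b at 67231, by mir-30a, mir-30e and mir-126a, by mir-26a at 36819, by mir-133a and by mir-10a at 26507. mir-10a, a Hox cluster miRNA, was 0.63 below the median of the other tissues, with kidney at 159309 RPM.

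miRNAs linked to cardiac growth, fibrosis and remodelling were read from a list of 25, of which 24 were compared. At least 1 above the tissue median stood 12 of them and 0 stood as far below, where 23.9% and 21.7% of all precursors did, with a median of 0.91 against 0.015 over all precursors. With TMM scaling there were 10 above, mir-30d and mir-29b-3 then falling short, and 1 below, mir-21 then being at −1.19. The 12 were 5 of the mir-30 family, mir-22, mir-23a at 1.68, mir-24-1 at 1.18, mir-24-2 at 1.15, and mir-29b-2 at 1.92, mir-29b-3 at 1.35 and mir-29c-2 at 1.43, the mir-29 family being known for lowering collagen genes. The mir-29b and mir-29c values rest on 14 to 53 heart reads. Copies such as mir-24-1 and mir-24-2 were counted apart. Against skeletal muscle alone, 6 of 23 members were at least 2-fold higher in heart and 0 lower, where 15.8% and 34.2% of all precursors were. With TMM scaling 12 of the 23 were higher. mir-30d was higher in skeletal muscle, at 18900 RPM against 12127 in heart, so the list was raised in part in both striated muscles. mir-21, known to be raised in failing and fibrotic heart, was at 8333 RPM in this untreated tissue, and −0.59 from the median. mir-34c was at 148 RPM, against 116708 in testes.

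**Figure D4:**
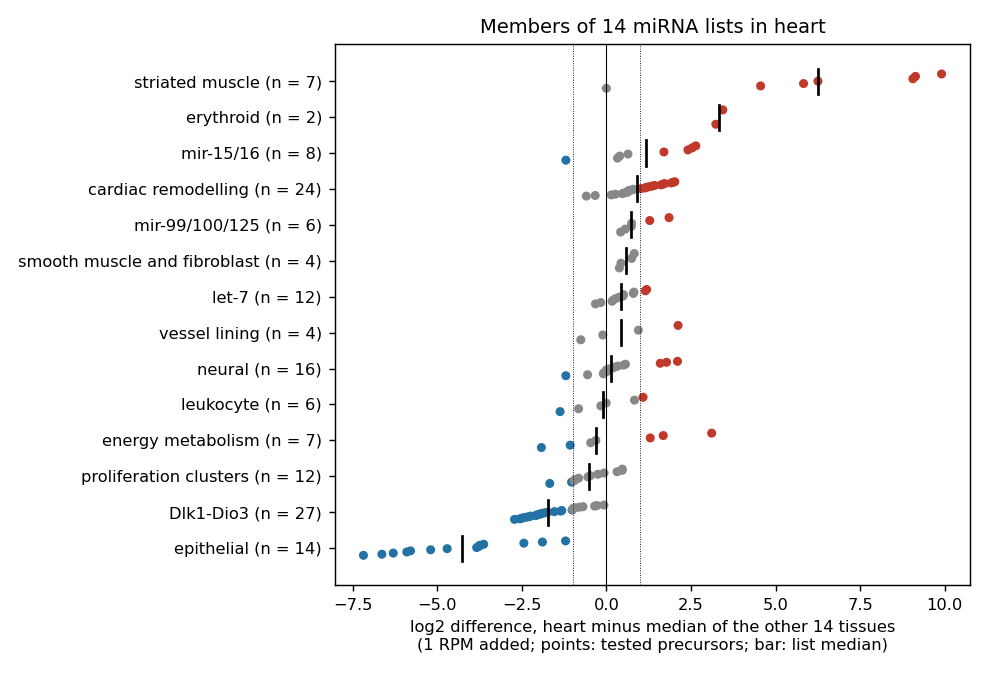
Log2 difference between heart and the median of the other 14 tissues (1 RPM added) for the compared members of 14 lists, where each point is a precursor, the bar is the list median, and the dotted lines mark 1 and −1. The striated muscle list reached 9.91 and the whole epithelial list lay under −1 (mir-192 excepted with TMM scaling).

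Epithelial miRNAs were the least abundant group relative to other tissues. All 14 compared members of that list were at least 1 below the tissue median, where 21.7% of all precursors were, with a list median of −4.27, or −3.39 with every member under the heart floor set to that floor. With TMM scaling 13 of the 14 were, mir-192 being the exception at −0.88. The mir-200 family, which keeps epithelial cells in their state, was near the floor for 4 of its members: 1 read of mir-200a against a median of 396 RPM in the other tissues, 3 reads of mir-200b against 616 RPM, 6 reads of mir-429 against 679 RPM and 0 reads of mir-200c. The remaining member, mir-141, had 18 reads, or 31.2 RPM (18.5 to 49.4), which was 3.03-fold (1.40 to 6.72) above skeletal muscle, against a median of 840 RPM in the other tissues. mir-375, a miRNA of endocrine and epithelial cells, had 4 reads in heart and 18328 RPM in large intestine. mir-205, a miRNA of stratified epithelium, had 0 reads in heart and 9133 RPM in skin.

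Skeletal muscle, spleen and testes were low in mir-200a, mir-200b and mir-429 too. mir-200a was at 3.18 RPM in skeletal muscle, 9.37 in spleen and 0 in testes, and mir-429 at 5.56, 14.1 and 24.7 RPM, so their low level was not particular to heart. mir-375 was at 1181 RPM in spleen, but at 12.0 in skin, 22.2 in skeletal muscle and 30.4 in thymus. mir-205 was at 106 RPM in skeletal muscle, but at 0 in pancreas, 3.27 in kidney and 4.03 in brain. Low levels of these were thus not particular to heart either. mir-182, a miRNA of sensory and other epithelia, was the only precursor lowest in heart with an interval clear of the next tissue (1 of 276, 0.362%). It was at 99.0 RPM in heart (75.0 to 128), 156 in skeletal muscle and 167 in testes, against 41799 in brain and 38035 in skin. With TMM scaling it was still lowest, but the interval of its ratio to the next tissue was then no longer clear of 1 and no precursor was called. Its neighbour mir-3553 was at 1 read, and mir-92b, highest in brain at 3523 RPM, and mir-196b-2 had 0 reads.

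Lists for the other cells of the tissue were near the tissue median apart from the red cell pair. mir-144 was at 198 RPM and mir-451 at 130 in heart, against 6790 and 6026 in spleen, and both were more than 3 above the tissue median on the log2 scale. They are miRNAs of red cells, and the blood left in each tissue was not measured here. Of 6 leukocyte miRNAs, mir-150 at 302 RPM was 1.09 above the median and mir-146b at 771 RPM was 1.37 below it, joined by mir-155 at −1.10 with TMM scaling. mir-142 was at 936 RPM, against 65299 in thymus. None of the 4 smooth muscle and fibroblast miRNAs passed 1, their median being 0.59. With TMM scaling mir-145, at 462 RPM, stood at 1.02.

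Of 16 neural miRNAs compared, 3 were above the tissue median by at least 1, a share under the 23.9% of all precursors, and 1 was below, mir-129-1 at −1.20 on 0 reads. The tissue median of mir-129-1, 1.29 RPM, was under the heart floor of 5.21 RPM, so this was not a measured difference. The 3 were the copies of mir-9a, at 1.59 to 2.10, although at only 29.5 to 43.4 RPM on 17 to 25 reads, against 11981 to 11996 RPM in brain. mir-124 had 0 reads from its 3 copies. The hepatocyte miRNA mir-122 had 1 read.

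Of 7 miRNAs of energy metabolism compared, 3 were above the tissue median by at least 1 and 2 below, where 23.9% and 21.7% of all precursors were, with a list median of −0.31. Among them mir-378a, which lies in the mitochondrial regulator gene Ppargc1b in mammals, was at 24224 RPM in heart and 72069 in skeletal muscle, with liver next at 13742. Heart and skeletal muscle were the 2 highest tissues for 7 of the 276 precursors (2.54%), namely mir-1, mir-1b, mir-133a, mir-133b, mir-378a, mir-378b and mir-30c-2. Brain shared the top with heart as often, for another 7. mir-378b was 3.11 above the median and mir-210, a hypoxia miRNA, was 1.30 above it at 143 RPM. The 2 below were mir-33, hosted by a sterol regulator gene, at −1.92 on 1 read, and mir-365, at −1.07 on 4 reads, or −0.73 with TMM scaling.

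Of the other families, 2 of 12 let-7 precursors were past 1 above the median (let-7d at 1.19 and let-7e at 1.15), a share under the 23.9% of all precursors, and 0 were with TMM scaling. In the mir-15/16 family 4 of 8 were above, all of them copies of mir-322 or mir-503, and 1 was below, mir-15b at −1.20 (−1.66 with TMM scaling). mir-16, at 10814 RPM, was 0.39 above. The clusters tied to cell proliferation had 0 of 12 above and 2 below, led by mir-92a-1 at −1.67, a share under the 21.7% of all precursors, and 5 below with TMM scaling. Of 6 miRNAs of the mir-99, mir-100 and mir-125 group, mir-100 at 1.85 and mir-125b-2 at 1.28 were above, and with TMM scaling mir-125b-2 stood at 0.77.

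The direct comparison with skeletal muscle, the other striated muscle of the series, asked which miRNAs part the 2 tissues. Of 228 precursors that averaged 10 RPM or more in the pair, 36 (15.8%) were at least 2-fold higher in heart with the interval clear of 1, and 78 (34.2%) at least 2-fold lower. This balance depended on the scaling, since TMM gave 60 higher and 66 lower of 221 and DESeq2 size factors 57 and 71 of 224. The median log2 ratio of heart to skeletal muscle moved from −0.22 to 0.16 with TMM. A precursor under 10 RPM in 1 pool was compared only if it was higher in the other. The counts of 36 and 78 both hold such precursors.

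Higher in heart by the largest ratios were mir-490 (at least 248-fold against the skeletal muscle floor), mir-208a (at least 236-fold), mir-208b (183-fold, 118 to 300), mir-3585 (80.0-fold, 33.7 to 249), mir-201 (49.6-fold, 16.3 to 246) and mir-499 (47.2-fold, 33.3 to 69.1). The red cell miRNAs mir-144 and mir-451 followed at 10.8-fold and 9.65-fold. For mir-490, mir-208a, mir-3585 and mir-201 a higher heart level was a condition of being compared, their skeletal muscle levels being 0 to 3.97 RPM. mir-208b, mir-144 and mir-451 also met the minimum mean of the pair only with their heart reads. mir-3585 and mir-201 are neighbouring miRNAs best represented in testes, at 12482 and 5960 RPM. In heart they were at 318 RPM (273 to 367) and 118 RPM (91.7 to 150), second only to testes, while skeletal muscle held 5 and 3 reads of them. mir-126a was 3.52-fold higher in heart than in skeletal muscle, mir-30e 2.79-fold and mir-143 2.49-fold.

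Lower in heart by the largest ratios were 2 groups and, outside both of them, mir-483. The Hox cluster miRNAs mir-196a and mir-196b had 0 heart reads. In skeletal muscle mir-196a was at 1134 RPM (at least 218-fold higher than the heart floor) and both copies of mir-196b were at 325 (at least 62.3-fold). Liver, pancreas, small intestine and spleen also had 0 reads of mir-196a, and kidney and fat had 710 and 987 RPM. mir-483, hosted by the growth factor gene Igf2, had 0 reads in heart and 407 RPM in skeletal muscle (at least 78.2-fold). At 0 heart reads, mir-196a, mir-196b and mir-483 were compared only through skeletal muscle, so a lower heart level was a condition for them.

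The second group was the imprinted Dlk1-Dio3 cluster, a long run of miRNAs expressed from the maternal chromosome. All 32 of its compared members were at least 2-fold lower in heart than in skeletal muscle, where 34.2% of all precursors were, and so were all members compared under TMM scaling (30) and DESeq2 size factors (31). Summed over the 32, heart held 681 RPM and skeletal muscle 80971, or 0.068% against 8.10% of the reads. mir-127 was at 302 RPM in heart (259 to 350) and 47227 in skeletal muscle, mir-411 at 115 and 7641, mir-541 at 69.4 and 5326, and mir-136 at 45.1 and 3285. Of the 32, 14 had 0 reads in heart. Those 14, and others low in heart such as mir-300 at 6.94 RPM, passed the minimum mean of the pair only through skeletal muscle. For them a lower level in heart was a condition of being compared, so the full count cannot be weighed against the 34.2%. By contrast, mir-127, mir-411, mir-541 and mir-136 would have passed that minimum on their heart levels alone. Among the largest ratios of the whole comparison, mir-540 (at least 58.2-fold), mir-493 (at least 50.3-fold), mir-3544 (at least 39.0-fold) and mir-6331 (1 heart read, 673 RPM in skeletal muscle) are members of this cluster or lie beside them.

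Set against all tissues the cluster was less extreme. Of 27 members compared, 18 were at least 1 below the tissue median, where 21.7% of all precursors were, and 0 above. Several of the 18 were not measured differences. For mir-329, mir-380, mir-382, mir-485, mir-493 and mir-540, at 0 heart reads, the tissue median of 2.33 to 4.48 RPM was itself under the heart floor of 5.21 RPM. For mir-381, at 0 reads, and mir-134, at 1 read, it was 5.56 and 9.11 RPM, less than 2-fold above that floor. With TMM scaling or DESeq2 size factors 23 were below. The list median was −1.73, or −0.50 with every member under the heart floor set to that floor. Its summed level ranked heart 13th of 15 tissues, with brain highest at 89347 RPM and the lowest tissue at 237. Without this list, 36 precursors were higher and 46 lower in heart than in skeletal muscle, of 196.

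**Figure D5:**
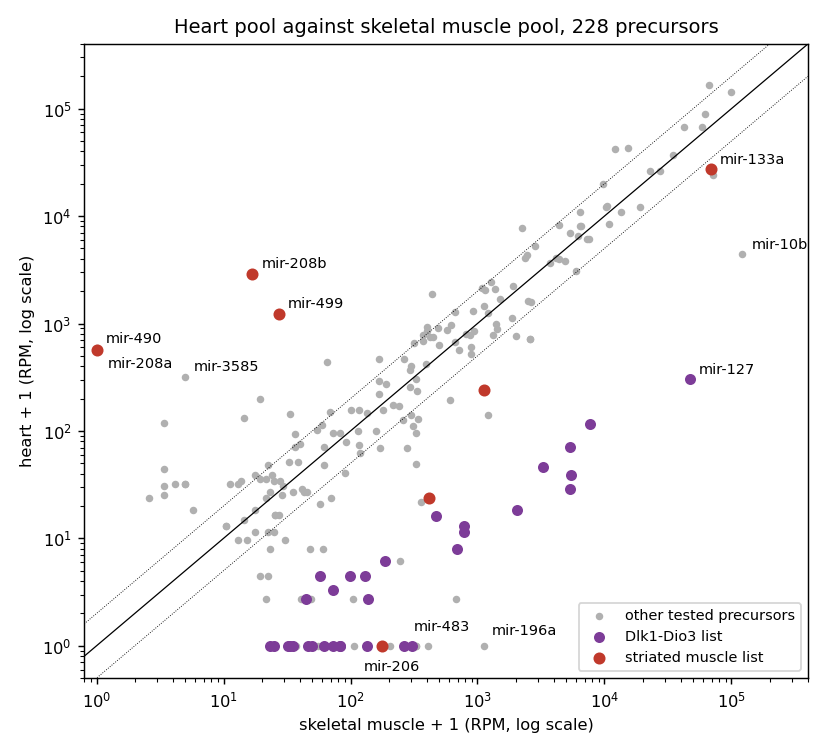
Each point is 1 of 228 precursors, with the skeletal muscle pool on the x axis and the heart pool on the y axis (RPM plus 1, log scales); the solid line marks equal levels and the dotted lines 2-fold differences. The Dlk1-Dio3 members all lay below the lower dotted line, and mir-208a, mir-208b, mir-490 and mir-499 lay far above the upper one.

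In the mature list 1 abundant heart miRNA appeared under another name. mir-378a held 13953 precursor reads in heart, but miR-378a-3p was listed at 0 and miR-378a-5p at 5.5 reads. The arm of an overlapping precursor on the opposite strand, miR-3557-5p, was listed at 13071 reads, 93.7% of the mir-378a precursor count, while the precursor mir-3557 itself was listed at 0. Skeletal muscle showed the same, with 86753 reads on miR-3557-5p and 90780 on mir-378a. The sequences are shown because they lie across 21 bases of the same place on opposite strands, as their RefSeq positions give it.
miR-378a-3p: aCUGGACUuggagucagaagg
miR-3557-5p: gCCUUCUGacuccaaguccagu
Whether the counting used strand is not given in the sources used here, so the mature level of miR-378a-3p in heart cannot be read from this list, and only its precursor level is used above.

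Arms and precursors also counted apart for other heart miRNAs. For mir-22 and mir-143 the listed arms held 99.5% and 98.8% of the precursor reads in heart. For mir-133a they held 7.74%, and in the 8 other tissues with enough reads 5.43 to 23.2%. In mature reads miR-133a-3p was at 2654 RPM in heart and 10094 in skeletal muscle, the same order as the precursor. Of the arms of mir-208a, miR-208a-5p was analysed here, at 16.9 reads in heart and 0 in skeletal muscle. No mature level is given here for miR-208a-3p or for the arms of mir-208b, so the mir-208 levels above rest on precursor reads.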

How the data were processed

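Small RNA libraries were made with the TruSeq Small RNA kit and sequenced on a MiSeq. Per the methods, the authors trimmed low-quality base calls, used Bowtie for alignment to the Rn5 genome, and counted reads on miRBase and RefSeq miRNAs. The deposited values are estimated counts (expected counts, not normalized) per miRNA, with 3 annotations stacked (444 miRBase release 21 precursors, 577 mature miRNAs and 388 RefSeq miRNAs). Reads were counted under each annotation, so each RPM is over its own total.

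Heart was compared with the median of the other 14 tissues as log2 after adding 1 RPM, for precursors with a mean of at least 10 RPM. Level intervals are exact Poisson, ratio intervals are exact conditional binomial, and shares use Wilson intervals, all at 95%. With 1 heart library no p-value was computed. PCR copies are not independent reads, so intervals cover counting error only. A fold against 0 reads uses a floor of 3 reads per library. The interval code was checked on simulated counts. Alternatives covered TMM (edgeR 4.0.16) and DESeq2 1.42.0 size factors on rounded counts, added RPM, filters, annotation lists and tissues left out. The analysis used Python 3.11.15, pandas 2.3.3, SciPy 1.17.1 and R 4.3.3.

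Precursors were named by rule: the striated muscle list, the 10 most abundant in heart, those highest or lowest in heart, the 10 furthest below the tissue median, the 8 largest ratios each way against skeletal muscle at 100 RPM or more, and the leading members of each list. mir-1b, mir-3557, mir-503, mir-365, mir-15b, mir-129-1 and the Dlk1-Dio3 members given beside list sums were named after their values were seen, as were the nearest values to a threshold. The markers and the 15 lists were chosen with earlier results of these data known. Coordinates are not given, because the files use Rn5 and the gene table is GRCr8. Serum was not used.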

Additional observations from a re-analysis of the deposited data

How the results depend on the processing

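No paired analysis was possible because heart is 1 library and the replicate numbers in the labels belong to brain and serum. The log2 differences of mir-208a, mir-499 and mir-133a kept their sign in every alternative run. The counts of precursors at least 1 above (66) and below (60) the tissue median stayed within 1.5 times under every alternative except 10 RPM added, which left 36 below, and a minimum mean of 100 RPM, which left 42 above and 32 below among fewer precursors. Their balance turned, over the precursors that passed the filter each time, to 56 above and 71 below with TMM, 55 and 73 with DESeq2 size factors and 68 and 75 with 0.1 RPM added. It also turned with a minimum mean of 1 RPM (70 and 80), without a filter (77 and 80) and with 10 counts in 3 libraries (64 and 71). Leaving out kidney, large intestine, pancreas, small intestine, stomach or thymus turned it too. With each tissue left out in turn the 2 counts ran from 60 to 68 and from 53 to 69, and with each hemisphere left out from 66 to 66 and from 59 to 60. The count highest in heart, 9, ran from 6 in the mature list to 13. Without skeletal muscle there were 13, the 4 added being mir-133a, mir-133b, mir-378a and mir-378b. Under TMM or DESeq2 size factors 8 of the 9 remained, mir-22 being lost and mir-149 gained, with mir-1843a also gained under DESeq2 size factors. The 1 precursor lowest in heart became 0 under TMM and DESeq2 size factors and 2 without skeletal muscle, ranging from 1 to 2 with each tissue left out. Higher in heart than in skeletal muscle were 36, but 60 with TMM, 57 with DESeq2 size factors and 19 at a minimum mean of 100 RPM, where 39 in place of 78 were lower. Without the Dlk1-Dio3 list, an alternative chosen after seeing the data, 46 were lower. The share of the 10 most abundant, 70.9%, was 74.5% in the RefSeq list and 80.4% in the mature list. The log2 difference of mir-208a, 9.14, was 12.46 with 0.1 RPM added and 5.84 with 10 RPM added, since the other tissues are near 0. That of mir-499, 5.83, was 5.34 with 10 RPM added and 6.05 without skeletal muscle or without pancreas. That of mir-133a, 9.06, was 9.18 with TMM, 9.17 with DESeq2 size factors, 9.09 and 8.83 with 0.1 and 10 RPM added, 9.28 without skeletal muscle, 8.87 without pancreas, and 8.99 to 9.11 with a hemisphere left out. For the other moved values the cause was not tested. Depth limits precursors under 5.21 RPM in heart, among them the 45 compared at 0 reads.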

Other observations

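The following were singled out after their values were seen. mir-10b, the partner of mir-10a in the Hox clusters, was at 4399 RPM in heart (4230 to 4574) and 121983 in skeletal muscle, a 27.7-fold difference. It was the most abundant precursor of skeletal muscle and 29th in heart, where mir-10a, at 26507 RPM, nearly matched the 27590 RPM of skeletal muscle. Pancreas, at 1110 RPM, and lung and liver were the only tissues with less mir-10b than heart. mir-196a and mir-196b, from the posterior part of the same gene clusters, had 0 heart reads.

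mir-3585, mir-201 and mir-547 are neighbours in the RefSeq annotation, and for each of them testes was highest and heart second. mir-547 was at 22.6 RPM in heart, on 13 reads, and at 790 in testes. Lung held mir-3585 at 223 RPM and mir-201 at 96.6, close to the heart levels. mir-34c, another miRNA highest in testes, was 0.15 above its tissue median in heart.

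mir-149 was at 93.7 RPM in heart and 144 in brain, with skeletal muscle at 71.4, and heart became its highest tissue with TMM scaling and with DESeq2 size factors.

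By level profile over the 276 precursors heart was most like lung (Pearson r of 0.845 between log2 levels) and spleen (0.829). Skeletal muscle had rank 10 of 14 at 0.783, and brain last at 0.590. Without the 7 striated muscle miRNAs every tissue rose, lung to 0.878, and skeletal muscle, at 0.802, had rank 12. These are correlations across miRNAs, which are not independent replicates, and a tissue's own composition and depth enter each of them.

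By mature seed, the 4 largest families in heart were those of miR-143-3p with 21.6% of mature reads, let-7 with 19.8%, miR-22-3p with 18.5% and miR-27 with 7.85%. The seed of miR-133a-3p and miR-133b-3p held 0.297% in heart and 11801 RPM in skeletal muscle. The order of seeds depends on how much of each precursor the mature list holds. In heart that was 98.8% for mir-143 and 99.5% for mir-22, but 26.4% for mir-30a, 10.6% for mir-30e and 7.74% for mir-133a. The mir-30 seed held 2.35% of mature reads, while the mir-30a precursor alone held 6.72% of precursor reads. The mir-133a precursor held 2.73%.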
